A study of Mus musculus with 14 samples.

Results

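Ovaries of mouse embryos with and without deletion of Nr2f2, the gene for the nuclear receptor COUP-TFII, were compared in mid-gestation, at embryonic day E14.5. The comparison used the 3 arrays titled as E14.5 knockout ovary and the 3 titled as E14.5 control ovary, which are 6 of the 14 arrays of the series. The other 8 arrays, from E16.5, entered the fit for the estimate of spread and were used for a check across stages. In the knockouts the mice carried WT1-CreERT2, a recombinase that tamoxifen activates in cells expressing Wt1, and a COUP-TFII flox/flox allele pair. Dams of all groups received tamoxifen, at 2 mg per 10 g of body weight, at E11.5 and again at E12.5. Both groups were on a mixed background of C57BL/6, B6129SF1/J and Swiss Webster. Whether the controls carried the recombinase or floxed alleles, and how many embryos or ovaries went into each RNA, is not stated in these sources. Wt1 marks somatic cells of the gonad and its surface, so the design directs the deletion at these cells and not at germ cells. The labels call the arrays biological replicates. The p-values rest on the spread within groups, pooled over all 14 arrays and not over the 6 of E14.5 alone.

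COUP-TFII is an orphan nuclear receptor that binds DNA at repeats of the half-site AGGTCA. In the fetal gonad it is made mainly by mesenchymal and interstitial cells, which lie between the cords of pre-granulosa cells and germ cells and give rise to later steroid-producing cells. At this age female germ cells leave the pluripotent state and enter meiosis under retinoic acid, through Stra8, while the surface epithelium continues to cover the gonad.

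Median signal on the E14.5 arrays was 90.0 to 102, and log2 signals of array pairs correlated across probe sets at 0.969 to 0.976 within a group and 0.966 to 0.975 between groups. Every array held ovarian genes: Foxl2, a determinant of granulosa cells, read 1152 to 2695, and Ddx4, a germ cell helicase, read 5203 to 9140. Several arrays nevertheless stood apart, in genes of other tissues and of germ cells. A set of 21 hepatocyte genes, chosen after their values were seen, had summed signals of 1595, 1085 and 1743 on controls 1, 2 and 3, and of 17637, 13466 and 1697 on knockouts 1, 2 and 3. Knockouts 1 and 2 were thus far above every other array, and knockout 3 was at the level of the controls. A set of 19 skeletal muscle genes, also chosen afterwards, summed to 2873, 2117 and 1898 in controls and to 6022, 3699 and 6968 in knockouts, with all knockout arrays above all controls. Knockout 2 was also far above the rest in 11 neutrophil and inflammation genes chosen afterwards (8509, against 622 to 917 elsewhere). Control 2 was highest in 13 erythroid precursor genes chosen afterwards (13802, against 2321 to 4686 elsewhere). Because bulk RNA was measured, fewer cells of a type and less RNA per cell cannot be told apart.

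The targeted gene was read by 6 probe sets. On the probe set that stood for Nr2f2, signals were 217, 493 and 422 on controls 1, 2 and 3 and 155, 252 and 267 on knockouts 1, 2 and 3. Control 1 lay within the range of the knockouts, and the groups overlapped. The log2 change, knockout minus control, was -0.67 ± 0.25 (SE), which did not pass (limma adjusted p = 0.444). The probe set 1416159_at read 19.3, 350 and 207 in controls and 34.6, 65.6 and 79.1 in knockouts. Control 1 was the lowest of the 6 arrays there. The probe set 1436475_at read 362, 609 and 733 in controls and 280, 352 and 438 in knockouts, and the dim 1444229_at read 16.1, 176 and 98.3 in controls and 30.3, 40.7 and 25.7 in knockouts. Control 1 lay below knockout 3 on 1436475_at and was again the lowest of the 6 arrays on 1444229_at. On both, controls 2 and 3 lay above every knockout. On 1416160_at control 1 had 268, which was above all knockouts (219, 161 and 259). The dimmest, 1431237_at, had no order by group. Without control 1 the log2 change of Nr2f2 was -1.01 and did not pass (adjusted p = 0.109). Without control 1 and knockout 3 together, a choice made after seeing the data, it was -1.14 (adjusted p = 0.0316). Whether control 1 carried its labelled genotype was not tested, and the sources do not give which probe sets lie in the deleted part.

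**Figure D1:**
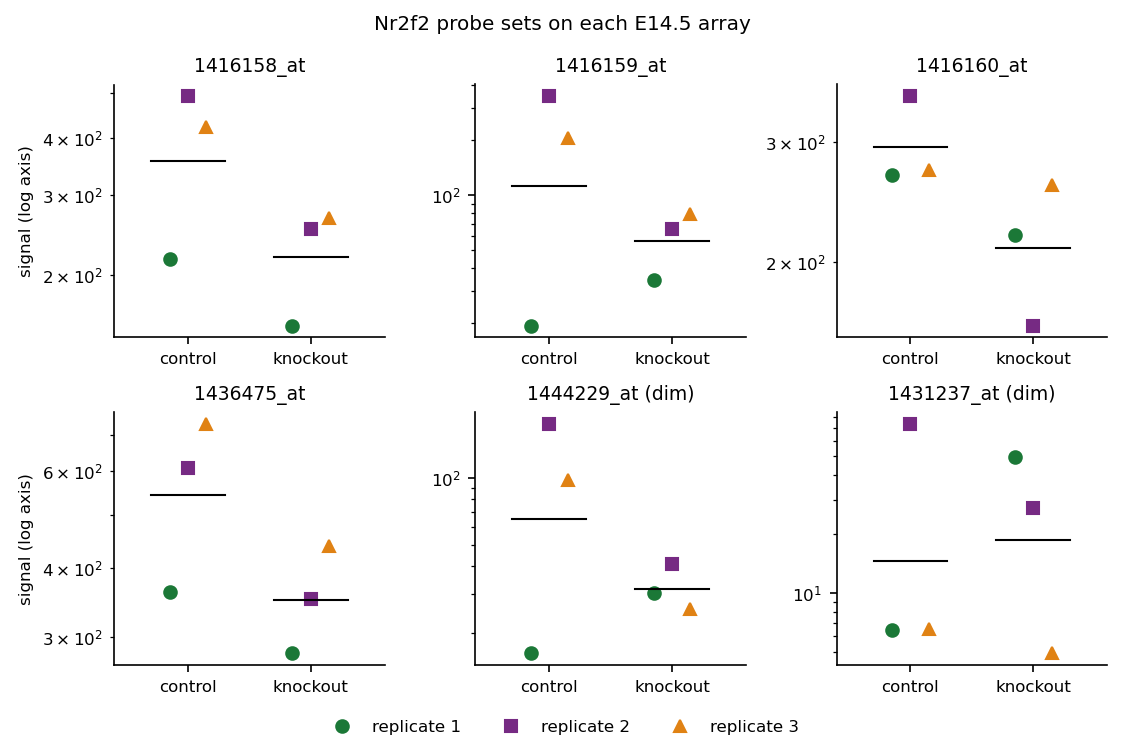
Signal (log axis) of the 6 Nr2f2 probe sets on the 3 control and 3 knockout arrays of E14.5, with 1 point per array and lines at the geometric means. Control 1 is the lowest array on 1416159_at, at 19.3, and lies above all knockouts on 1416160_at, at 268.

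Wt1, whose locus drives the recombinase, had signals of 3772, 5309 and 5622 in controls and 3313, 4792 and 4369 in knockouts. Its log2 change was -0.23 ± 0.15 (SE) and did not pass (limma adjusted p = 0.694). Of the other COUP-TF receptors, Nr2f1 (COUP-TFI) had 440, 510 and 708 in controls and 515, 603 and 667 in knockouts, and Nr2f6 had 392 to 417 and 383 to 434. Their log2 changes, 0.12 ± 0.17 and 0.01 ± 0.13, were within their errors. That of Nr2f6 turned negative with quantile normalization (-0.031) and median centring (-0.038), and no direction is given for it.

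Over the whole ovary few genes separated the groups. Of 12406 genes tested, 5 rose in the knockouts (0.0403%) and 0 fell. The 5 were Pmaip1, Pram1, Mt1, B2m and Gpc3, each at a limma adjusted p of 0.0473. These calls rest on the spread pooled over both stages, and 0 genes passed in a fit of the E14.5 arrays alone. An unadjusted p under 0.05 was reached by 676 genes in the higher direction (5.45%) and by 385 in the lower (3.1%), 8.55% together. In 973 genes (7.84%) all knockout arrays lay above all controls, and in 608 (4.9%) all lay below. These shares over all genes are set beside the counts of list members given further on. The lists were chosen with earlier results of these data known, so an excess over these shares is not independent support. The change was positive for 55.3% of genes. The number of calls depended on the array left out: without knockout 3, 106 genes were higher (0.854%) and 73 lower (0.588%), against 20 and 3 without control 1 and 0 in either direction without control 2, control 3 or knockout 2. Without knockout 1, 1 gene was higher, Jpt1.

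Pmaip1 (Noxa), an activator of apoptosis and a target of p53, had signals of 61.6, 20.3 and 24.9 on controls 1, 2 and 3 and 206, 311 and 90.6 on knockouts 1, 2 and 3. Every knockout was above every control, and the groups were separated by the step from 61.6 to 90.6. It rose by a log2 change of 2.02 ± 0.35 (SE). Pram1, a signalling adaptor known from myeloid cells, read 9.88, 5.85 and 8.56 in controls and 82.4, 92.0 and 29.9 in knockouts. It rose by 1.71 ± 0.29 in the fit. Its signals were below the filter level of 62.0 on every control and on knockout 3, and it was tested because its E16.5 means were 195 in controls and 239 in knockouts, so the size of the change at E14.5 is not a measured fold. The size of both changes depends on the pseudocount of 16, and with 64 they were 1.35 and 0.84 and neither passed.

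Mt1, a metallothionein that binds zinc and copper, read 3103, 2878 and 2392 in controls and 5797, 6008 and 4874 in knockouts. This was a step between tight groups, with a log2 change of 0.99 ± 0.17. B2m, the light chain shared by class I histocompatibility molecules, read 3945, 3312 and 3125 in controls and 6485, 6220 and 4931 in knockouts (0.76 ± 0.12). A second B2m probe set read 4035, 3106 and 3018 against 5464, 5638 and 4680, also without overlap. Gpc3, a glypican that binds growth factors and hedgehog at the cell surface, read 3442, 3083 and 2933 in controls and 4740, 5350 and 4551 in knockouts (0.63 ± 0.11). For each of the 5 genes knockout 3 lay above all controls, although its hepatocyte genes were at the control level. In knockout 3 alone against the controls, with knockouts 1 and 2 left out (a fit added after seeing the data, in which the lone array is assumed to vary like the other groups), the log2 changes were 1.13 for Pmaip1, 0.93 for Pram1, 0.81 for Mt1, 0.52 for B2m and 0.53 for Gpc3, and none passed.

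**Figure D2:**
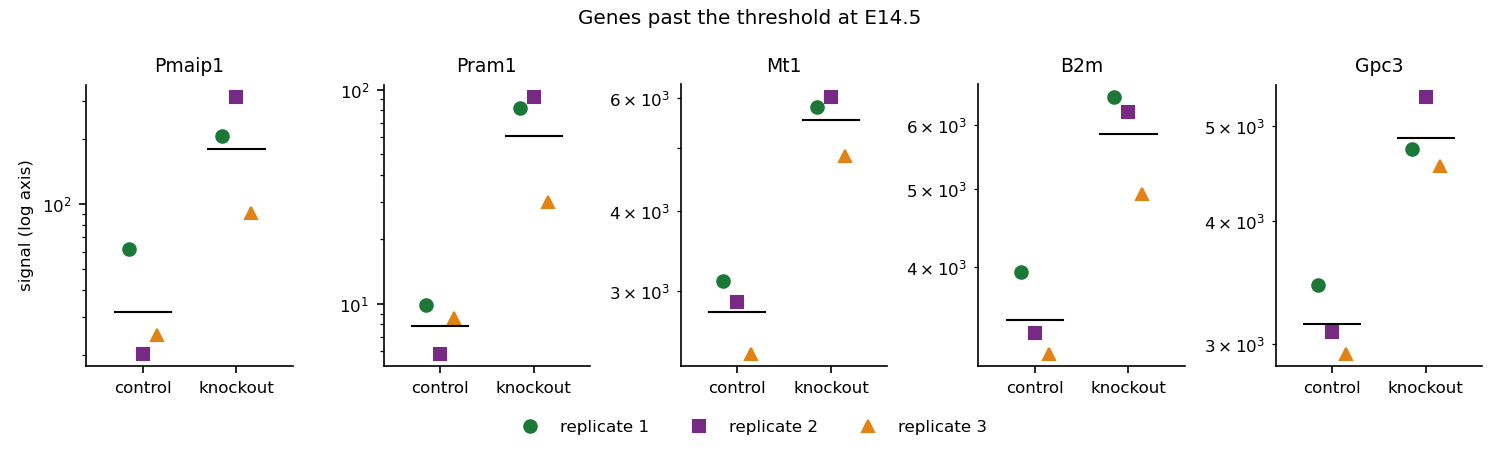
Signal (log axis) of the 5 genes past the threshold on each E14.5 array, with 1 point per array and lines at the geometric means. Knockout 3 is the lowest knockout for all 5 genes and still lies above every control, as for B2m at 4931 against a highest control of 3945.

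Among the 21 measured genes of metal binding and oxidative defence, 1 rose (Mt1), 5 were higher and 3 lower at an unadjusted p under 0.05, and the median log2 change was 0.08, against 0.03 over all genes tested. Mt2, the neighbouring metallothionein, read 2710, 3074 and 1673 in controls and 5109, 5436 and 3958 in knockouts. All knockouts were higher, and its change of 0.99 ± 0.26 did not pass (limma adjusted p = 0.259). Whether the Mt1 and Mt2 probes tell these similar RNAs apart was not tested. Ephx1, an epoxide hydrolase of detoxification, read 211, 182 and 123 against 380, 480 and 357, with a change of 1.18 ± 0.21 just outside the threshold (limma adjusted p = 0.0693). The glutathione transferase Gsta4 read 1086, 1065 and 1267 against 1490, 1700 and 1702. Gpx4, which protects lipids from peroxidation, went the other way with 3482, 4161 and 3183 against 2122, 2851 and 1930. The groups did not overlap for either gene, and neither change (0.51 ± 0.11 and -0.66 ± 0.21) passed.

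The promoter windows of Mt1 and Mt2 are shown because both genes had every knockout above every control. They come from RefSeq (GRCm38.p6), run from 250 bases before the transcription start to 50 after it, and lie on the plus strand at chr8:94178839-94179138 and chr8:94172368-94172667. Capitals mark the core of the metal response element, the site of the zinc-sensing factor MTF1, searched as TGCACNC or TGCGCNC on both strands.
Mt1: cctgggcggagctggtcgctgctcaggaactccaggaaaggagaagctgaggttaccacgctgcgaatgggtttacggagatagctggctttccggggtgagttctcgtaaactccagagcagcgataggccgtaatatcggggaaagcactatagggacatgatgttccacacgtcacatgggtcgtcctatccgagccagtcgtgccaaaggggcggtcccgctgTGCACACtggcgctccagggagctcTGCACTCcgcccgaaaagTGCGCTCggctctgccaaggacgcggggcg
Mt2: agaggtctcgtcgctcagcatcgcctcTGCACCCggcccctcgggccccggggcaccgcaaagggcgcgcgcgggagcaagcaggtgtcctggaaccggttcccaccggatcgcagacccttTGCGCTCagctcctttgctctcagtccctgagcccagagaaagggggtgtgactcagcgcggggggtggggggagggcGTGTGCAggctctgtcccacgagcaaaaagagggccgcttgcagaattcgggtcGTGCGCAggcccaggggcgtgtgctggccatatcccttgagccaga
Mt1 held 3 matches and Mt2 held 4, 2 of which were on the opposite strand. Of all 32851 windows, 25.7% held at least 1, 1.97% at least 3 and 0.517% at least 4. The half-site AGGTCA was in no window of Mt1, Mt2, B2m or Gpc3 and in both windows of Pram1, and 16.3% of all windows held it. Pmaip1 is not covered here.

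Genes known to be induced by the tumour suppressor p53, which halts the cell cycle or starts apoptosis after DNA damage, had positive changes in 18 of 23 measured members. Of the 23, 1 rose (Pmaip1), 9 were higher and 0 lower at an unadjusted p under 0.05, and 10 had all knockouts above all controls, against 7.84% of genes in general. This list was chosen with earlier results of these data known, so the excess is not independent support for a p53 response. Their median log2 change was 0.19, and the medians per array, relative to the control mean, were 0.24, 0.29 and 0.15 in knockouts and 0.07, -0.00 and -0.10 in controls. Ccng1, a cyclin G induced by p53, read 2945, 1621 and 1345 in controls and 4087, 3879 and 3455 in knockouts (1.02 ± 0.20). Control 1 was the nearest to the knockouts. Eda2r, a receptor of the TNF receptor family, followed the same order of arrays with 160, 85.2 and 72.0 against 342, 277 and 254 (1.39 ± 0.28). The limma adjusted p was 0.102 for each. The cell cycle inhibitor Cdkn1a (p21) read 537, 342 and 394 against 673, 811 and 524, and overlapped because control 1 exceeded knockout 3 (0.64 ± 0.18). Phlda3, an inhibitor of AKT, read 314, 407 and 320 against 635, 501 and 554 (0.68 ± 0.16), without overlap. The RNA-binding Zmat3 (447, 447 and 394 against 554, 827 and 635) and the spindle gene Psrc1 (530, 493 and 459 against 690, 875 and 708), chosen after their values were seen, also did not overlap. With knockouts 1 and 2 left out, 7 of the 23 were higher at an unadjusted p under 0.05, against 2.09% of all genes; this arm has 1 array, assumed to vary like the other groups. Ccng1 and Eda2r passed without control 1 (adjusted p = 0.000333 and 0.0227) and without knockout 3 (0.0275 and 0.0295).

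Promoter windows of Cdkn1a (plus strand, chr17:29090729-29091028) and Ccng1 (minus strand, chr11:40755237-40755536) are shown as 2 of these p53 targets, with matches to the p53 half-site in capitals. This half-site is its own reverse complement, so each match reads on both strands.
Cdkn1a: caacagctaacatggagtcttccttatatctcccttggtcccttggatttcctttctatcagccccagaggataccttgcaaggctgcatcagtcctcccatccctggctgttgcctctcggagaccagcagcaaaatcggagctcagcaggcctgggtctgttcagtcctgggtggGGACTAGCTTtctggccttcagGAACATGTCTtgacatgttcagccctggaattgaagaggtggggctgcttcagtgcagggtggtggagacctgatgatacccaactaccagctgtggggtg
Ccng1: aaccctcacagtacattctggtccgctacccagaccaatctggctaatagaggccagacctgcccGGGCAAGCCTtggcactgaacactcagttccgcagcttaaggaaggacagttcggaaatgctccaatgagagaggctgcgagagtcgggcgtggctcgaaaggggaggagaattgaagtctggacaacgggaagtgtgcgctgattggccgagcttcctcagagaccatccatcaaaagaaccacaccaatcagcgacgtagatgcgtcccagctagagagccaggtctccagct
The Cdkn1a window held 2 matches and that of Ccng1 held 1. Of all windows 8.36% held at least 1 and 0.359% at least 2. The windows of Eda2r, Phlda3 and Psrc1 held none, and a second window of Cdkn1a, at a later start, held none. Among genes outside the p53 list, the window of Gpc3 and 1 of the 2 windows of Pram1 held 1 each. Those of Mt1, Mt2, B2m and Ephx1 held none. Zmat3 and Pmaip1 are not covered.

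Of 14 measured regulators of apoptosis 1 rose (Pmaip1), 2 were higher and 0 lower at an unadjusted p under 0.05, 11 changes were positive, and the median log2 change was 0.12. The median size of change, without its sign, was 0.20, against 0.14 over all genes tested. Mcl1, the survival protein that the Pmaip1 product binds, read 2419, 2345 and 2294 in controls and 3122, 3269 and 2501 in knockouts (0.32 ± 0.13), with no overlap. Bid, which links death receptors to mitochondria, read 654, 523 and 628 against 343, 343 and 752, low on knockouts 1 and 2 only.

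Of 13 measured genes of class I antigen presentation 1 rose (B2m), 2 were higher and 0 lower at an unadjusted p under 0.05. Tapbp, which loads peptides, read 1014, 1375 and 1097 in controls and 1400, 1873 and 1297 in knockouts. The medians of the list were 0.25 and 0.41 on knockouts 1 and 2 and -0.11 on knockout 3. Of 17 interferon response genes 3 were higher and 0 lower at that level, against 5.45% and 3.1% of all genes, and 0 lacked overlap. Knockout 2 led them with a median of 0.50, beside 0.10 and -0.01 on knockouts 1 and 3, and the count of 3 was 0 without knockout 2 or without control 2. Of 11 glypicans and syndecans, Gpc3 was the 1 that rose, and no other had an unadjusted p under 0.05.

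Genes of the ovarian surface epithelium, which covers the gonad and forms from coelomic epithelium, had positive changes in 13 of 14 measured members. Of the 14, 0 rose, 5 were higher and 0 lower at an unadjusted p under 0.05 (5.45% of all genes were higher), and 7 had all knockouts above all controls (7.84% of all genes). The median log2 change was 0.45. Without knockout 2 it was 0.23, and 3 were higher. Krt19, a keratin of simple epithelia, read 1097, 501 and 415 on controls 1, 2 and 3 and 1851, 2039 and 1284 on knockouts 1, 2 and 3 (1.44 ± 0.28, limma adjusted p = 0.102). The membrane glycoprotein Gpm6a read 787, 332 and 245 against 1168, 1615 and 823 (1.49 ± 0.37). In both genes control 1 stood apart from the other controls, next to knockout 3. Krt7 read 963, 621 and 655 against 981, 1358 and 1191, and the uroplakin Upk3b 2384, 2405 and 2387 against 2550, 4443 and 3036. Krt19 and Gpm6a passed without control 1 (adjusted p = 0.00272 and 0.0252).

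Interstitial and mesenchymal genes, the main site of COUP-TFII, moved in no common direction. Of 18 measured 0 passed, and the median log2 change was 0.15. At an unadjusted p under 0.05, 4 were higher and 2 lower, against 5.45% and 3.1% of all genes. Osr1, a zinc finger gene of intermediate mesoderm, read 170, 183 and 120 in controls and 281, 599 and 330 in knockouts (1.22 ± 0.26, limma adjusted p = 0.171). The homeobox gene Meox1 read 23.2, 64.9 and 6.43 against 74.5, 173 and 118, and the matrix proteoglycan Dcn 5368, 4410 and 4402 against 7947, 8154 and 5925. All 3 lacked overlap. Wnt5a, a secreted ligand of the gonadal mesenchyme, read 1059, 1741 and 1574 in controls and 643, 825 and 1227 in knockouts (-0.71 ± 0.23). Knockout 3 lay above control 1, so the groups overlapped. Without knockout 3 Wnt5a had -0.95 (adjusted p = 0.0439). Tcf21, a helix-loop-helix factor of the gonadal stroma, read 1323, 2796 and 2566 against 1326, 2238 and 1804, with control 1 the lowest array. Ptch1, the hedgehog receptor and target, read 1799, 1633 and 1827 against 1325, 1085 and 1671 (-0.38 ± 0.17), a sign that turned when its probe sets were averaged (0.051).

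Pre-granulosa genes were balanced: of 20 measured 0 passed, with 10 positive and 10 negative changes. At an unadjusted p under 0.05, 3 were higher and 2 lower, against 5.45% and 3.1% of all genes. Foxl2, Wnt4 and Msx1, given here, all had negative changes, and the 3 higher genes are not shown. Foxl2 read 1274, 2542 and 2695 in controls and 1439, 2011 and 1152 in knockouts, and Wnt4, a ligand needed for ovarian fate, 2214, 4669 and 3755 against 1892, 2763 and 2756. Control 1 read low in both and lay among the knockouts. The homeobox gene Msx1, a BMP target that supports meiotic entry, read 724, 1085 and 1072 against 298, 445 and 905 (-0.91 ± 0.28, limma adjusted p = 0.339). Knockout 3 was again the nearest to controls. Of 13 Sertoli genes 0 passed, and 3 were higher and 2 lower at an unadjusted p under 0.05. Among the 13, 10 changes were positive and 3 negative, and the median was 0.33. Dmrt1, 1 of the 2 lower, is given with the meiotic genes. Inha, the inhibin alpha subunit, read 1096, 817 and 829 against 1128, 1461 and 1157. The prostaglandin synthase Ptgds read 135, 143 and 170 against 347, 355 and 187.

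In the steroid synthesis and adrenal cortex lists, of 6 and 3 measured genes 0 passed, and 1 and 3 were higher at an unadjusted p under 0.05. Hsd3b1, an enzyme of steroid synthesis, read 1947, 1118 and 752 in controls and 3337, 2911 and 1421 in knockouts. Control 1 exceeded knockout 3, and the change of 1.01 ± 0.35 did not pass (limma adjusted p = 0.414). Hao2 read 357, 202 and 160 against 602, 590 and 311, and the corticotropin receptor Mc2r 85.8, 58.2 and 64.7 against 113, 133 and 123. The cholesterol-cleaving Cyp11a1 read 109, 126 and 110 against 111, 75.7 and 59.4, and the cholesterol carrier Star 115, 138 and 98.6 against 89.3, 120 and 102. Both were dim on every array, between 59.4 and 138.

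Germ cell genes divided the knockout arrays. Of 14 measured genes of early germ cells and pluripotency 0 passed. At an unadjusted p under 0.05, 7 were lower and 0 higher, against 3.1% and 5.45% of all genes. All 14 changes were negative, with a median of -0.80. The medians per array were 0.63, -0.34 and -0.26 in controls 1, 2 and 3, and -1.37, -1.23 and 0.27 in knockouts 1, 2 and 3. Sox2, a pluripotency factor, read 1216, 451 and 446 in controls and 2.54, 28.4 and 1023 in knockouts. Knockouts 1 and 2 were below the filter level, and knockout 3 was the second highest of all arrays. Sall4, a zinc finger factor of germ cells, showed the same split with 1068, 289 and 465 against 37.1, 51.8 and 638, as did Pou5f1 (Oct4) with 565, 225 and 264 against 64, 48.5 and 285. Dppa4, a chromatin protein of pluripotent cells, read 653, 307 and 322 against 83.4, 91.1 and 518, and Dppa3, chosen after its values were seen, 2462, 701 and 805 against 181, 129 and 1522. The count of 7 was 0 without control 1, knockout 1 or knockout 2, with medians of -0.55, -0.51 and -0.57. With knockouts 1 and 2 left out, 12 of the 14 changes were positive, and those of Sox2 (0.69), Sall4 (0.27) and Dppa4 (0.35) changed sign.

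Stra8, Mei4 and Dmrt1 showed the same split of the knockout arrays, but the meiotic list as a whole did not. Stra8, the retinoic acid target that starts meiosis, read 8166, 5351 and 5443 in controls and 1171, 566 and 5679 in knockouts (-1.98 ± 0.73, limma adjusted p = 0.432). Knockout 3 lay within the control range. Mei4, needed for meiotic DNA breaks, read 703, 681 and 1114 against 314, 195 and 952, and Dmrt1, a regulator upstream of Stra8 in the fetal ovary, 662, 393 and 442 against 61.8, 62.7 and 712. Medians per array over 30 meiotic genes were -0.05, -0.14 and 0.15 on controls 1, 2 and 3. On knockouts 1, 2 and 3 they were 0.04, -0.24 and -0.17. Of the 30, 0 passed, and the median log2 change was -0.16. At an unadjusted p under 0.05, 1 was higher and 5 lower, against 5.45% and 3.1% of all genes. Without knockout 2 the counts were 0 and 0 and the median was -0.09. The 5 lower were 2 without control 1, control 3 or knockout 1. Without knockout 3, 5 were higher and 8 lower, and the median was -0.08. Hormad1, a protein of the meiotic chromosome axis, read 6064, 5525 and 7611 against 5826, 3123 and 4621, lowest on knockout 2.

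Of 23 genes in the germ cell RNA and piRNA pathway 0 passed, 21 changes were negative and the median was -0.28. At an unadjusted p under 0.05, 4 were lower and 0 higher, against 3.1% and 5.45% of all genes. Without knockout 2 or without control 3 the count of 4 was 0, and the medians were -0.13 and -0.14. The median on knockout 2 was -0.53, beside -0.17 and -0.09 on knockouts 1 and 3. Dazl, an RNA-binding protein of germ cells, read 17739, 16405 and 18706 in controls and 12637, 9693 and 17801 in knockouts, and Ddx4 9140, 6723 and 8094 against 6487, 5203 and 7748. Knockout 2 was the lowest array for both. Stk31 (9309, 8560 and 10159 against 7983, 5116 and 7520) and Rnf17 (3361, 3244 and 3736 against 2728, 1692 and 2961) had all knockouts below all controls. Of 8 oocyte genes 0 passed, with 2 lower and 0 higher at an unadjusted p under 0.05, and 0 lower without control 1, knockout 1 or knockout 2. Figla, which switches on zona pellucida genes, read 1928, 1991 and 2487 against 1822, 1244 and 1696 (-0.43 ± 0.39). The arrays with low pluripotency genes and low Stra8 were the same 2 with high hepatocyte genes; the part of either in the other was not tested.

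**Figure D3:**
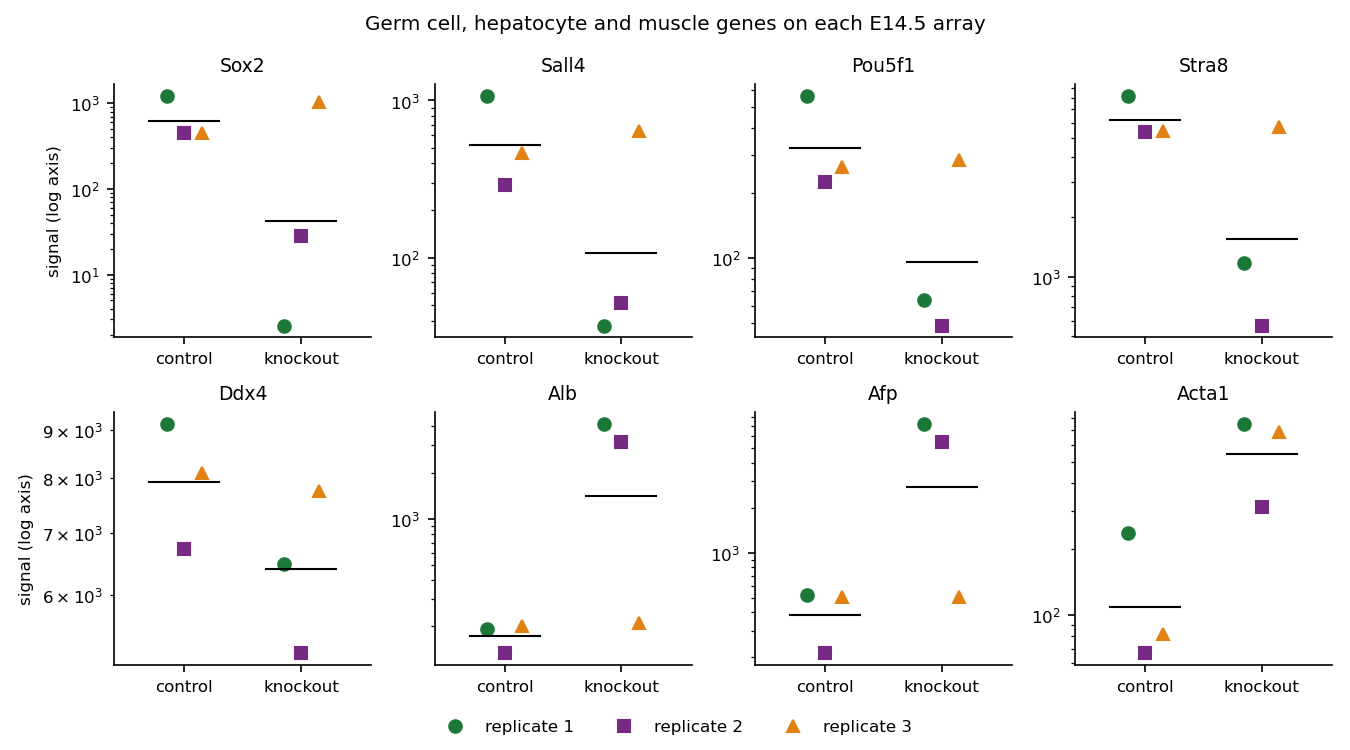
Signal (log axis) of 5 germ cell genes, the hepatocyte genes Alb and Afp and the muscle gene Acta1 on each E14.5 array, with 1 point per array and lines at the geometric means. Knockouts 1 and 2 are low in Sox2, Sall4, Pou5f1 and Stra8 and high in Alb and Afp, while knockout 3 has 1023 for Sox2 and 210 for Alb; Acta1 is higher on all 3 knockouts.

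The largest changes without overlap were mostly of genes from other tissues. By the rule for named genes (mean signal of at least 200 in the higher group) the 10 largest were Alb, Acta1, Serpina6, Pmaip1, Actc1, Apoa2, Myl1, Tnnc1, Gpm6a and Krt19. Alb, serum albumin, read 192, 133 and 200 on controls 1, 2 and 3 and 4151, 3174 and 210 on knockouts 1, 2 and 3. Afp, the fetal serum protein, chosen after its values were seen, read 525, 213 and 504 against 7260, 5494 and 510. Of the 18 hepatocyte genes tested 0 passed and 15 were higher at an unadjusted p under 0.05, and without knockouts 1 and 2 the count was 0 and the median was 0.14 in place of 1.86. Without knockout 1 alone it was 6, and 9 without control 2 or knockout 2. Acta1, skeletal muscle actin, read 238, 66.5 and 81.6 against 750, 312 and 688, and Tnnc1, slow troponin C, 99.0, 56.4 and 82.3 against 275, 165 and 360. Myl4, a myosin light chain, read 91.9, 64.2 and 82.6 against 320, 166 and 254 (1.42 ± 0.27, limma adjusted p = 0.102), and Myog, the muscle determination factor, 48.3, 57.0 and 38.2 against 163, 147 and 131. Both were chosen afterwards. Of the 12 muscle genes tested 0 passed and 10 had every knockout above every control. The hepatocyte and muscle lists were chosen after their values were seen, so the shares over all genes are no comparison for their counts. The part of the hepatocyte and muscle genes in the other differences was not tested.

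The 10 lowest changes by the same rule were of Galc, Amph, Zdhhc14, Rab39, Aff3, Rundc3b, Nsd3, Plxdc1, Frem1 and Gpx4, and none passed. Amph, an endocytic protein, read 373, 714 and 964 in controls and 363, 288 and 148 in knockouts (-1.29 ± 0.30, limma adjusted p = 0.215). Here control 1 lay close to the highest knockout. Frem1, an extracellular matrix protein of basement membranes, read 631, 1024 and 971 against 630, 450 and 545 (-0.66 ± 0.17), with control 1 and knockout 1 nearly equal. Aff3, a transcription elongation factor, read 1186, 1699 and 1900 against 600, 950 and 1139. Nsd3, a histone methyltransferase, read 2137, 2133 and 2328 against 1502, 948 and 1711 (-0.70 ± 0.16). Galc, a lysosomal galactosidase, followed the split of the knockout arrays with 415, 417 and 354 against 32.4, 56.5 and 288.

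Knockout 2 was the highest array in several tissue lists. It had 44 genes above every other E14.5 array by at least 1 on the log2 scale, against 0 to 17 on the other arrays. S100a8 and S100a9, calcium-binding proteins of neutrophils that were chosen after their values were seen, read 3991 and 1743 there. S100a8 read 73.5 to 167 and S100a9 4.86 to 93.7 on the other 5 arrays. Of 29 extracellular matrix genes 0 passed and 10 were higher at an unadjusted p under 0.05, against 5.45% of all genes. Their medians were 0.14, 0.79 and 0.04 on knockouts 1, 2 and 3. Without knockout 2 the count was 3 and the median of the list went from 0.29 to 0.08. Fbln2, a fibulin of elastic matrix, read 353, 382 and 342 against 595, 1689 and 640. The collagen Col6a3 read 2423, 2504 and 2417 against 3317, 4768 and 3104, and Col1a1 read 1204, 1534 and 1813 against 2077, 4060 and 1427, with overlap. Of 18 hypoxia and glycolysis genes 0 passed and 6 were higher at an unadjusted p under 0.05, against 5.45% of all genes. Their medians were 0.05, 0.59 and 0.18. Without knockout 2 the count was 0, and 2 without control 2 or control 3. Ldha, lactate dehydrogenase, read 5786, 5717 and 5484 against 6451, 10090 and 6545. Of 15 immediate early and stress genes 0 passed, 2 were higher at that level and all 15 changes were positive, with medians of 0.15, 0.64 and 0.22. Gadd45b, a growth arrest gene, read 320, 280 and 270 against 530, 510 and 478, evenly over the knockouts.

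**Figure D4:**
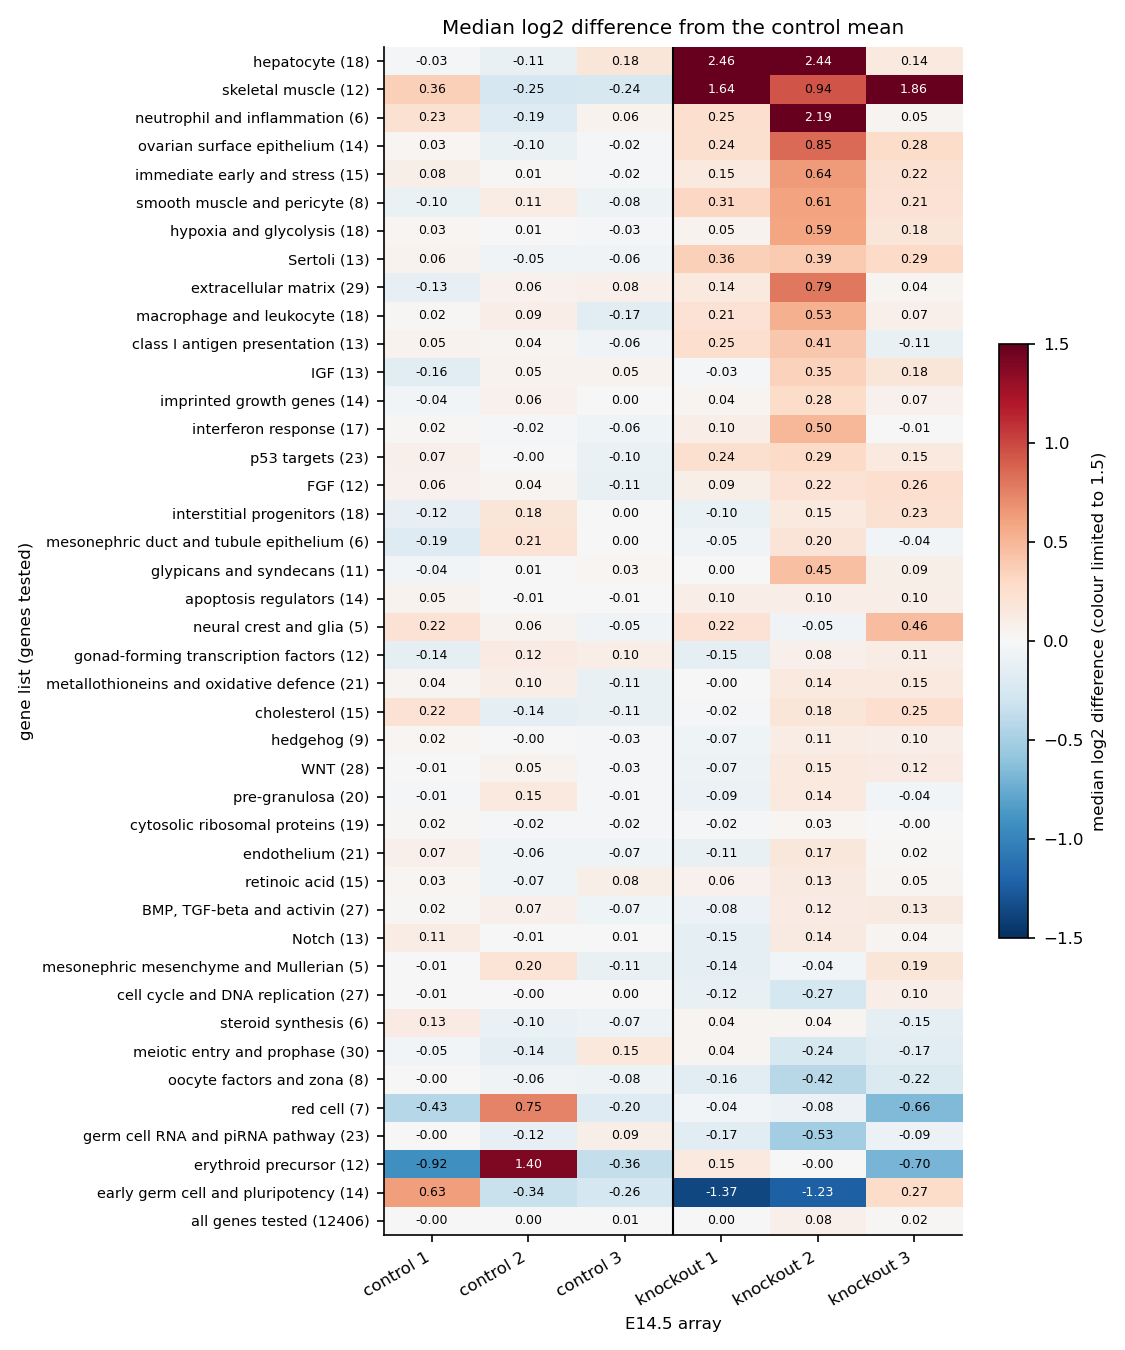
Median log2 difference from the control mean over the tested genes of each list with at least 5 (in brackets, their number), for each E14.5 array. The hepatocyte row is at 2.46, 2.44 and 0.14 on knockouts 1, 2 and 3 and the pluripotency row at -1.37, -1.23 and 0.27; the hepatocyte, skeletal muscle, neutrophil and erythroid precursor lists were chosen after their values were seen.

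No gene of the signalling lists passed the threshold, and their counts at an unadjusted p under 0.05 are given beside 5.45% of all genes higher and 3.1% lower. Of 27 BMP, TGF-beta and activin genes 4 were higher and 1 lower, and 1 and 2 without knockout 2. Inhbb, the activin beta B subunit, read 1934, 1370 and 1695 in controls and 2111, 2394 and 2749 in knockouts. Acvr2b, an activin receptor, read 263, 267 and 221 against 191, 169 and 175. Of 28 WNT genes 2 were higher and 1 lower, and of 9 hedgehog genes 0 and 1. Of 12 FGF genes and 13 Notch genes 0 reached that level. Of 13 IGF genes 1 was higher: Igfbp3, a binding protein of IGF, read 1804, 2346 and 2679 against 3061, 4598 and 3965 (0.76 ± 0.18, limma adjusted p = 0.224). Of 15 retinoic acid genes 3 were higher and 1 lower, and 0 and 1 without knockout 2, with Crabp1, a retinoic acid binding protein, at 466, 598 and 753 against 217, 261 and 530. Of 27 cell cycle genes 1 was higher and 0 lower: Ccnd2, cyclin D2, read 7229, 6433 and 6382 against 9409, 10437 and 8314 (0.49 ± 0.11, limma adjusted p = 0.205), without overlap. Of 21 endothelial and 18 macrophage genes, 0 reached that level in either direction, and 19 ribosomal protein genes had a median of -0.00.

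The arrays of E16.5 share no sample with those of E14.5, so the E14.5 signals of genes called there are a separate measurement. The spread behind the p-values is not separate, because it was pooled over the arrays of both stages. Calling genes at E16.5 therefore favours genes of low pooled spread. Low spread by itself can raise the counts at E14.5 with an unadjusted p under 0.05 and those without overlap. At E16.5 120 genes rose (0.967%) and 56 fell (0.451%). Of the 120, 108 (90.0%) had a positive change at E14.5, 50 (41.7%) were higher at an unadjusted p under 0.05 and 1 was lower, and 45 lacked overlap in that direction. The shares over all genes tested were 55.3% positive, 5.45% and 7.84%. The median change was 0.37 at E14.5 and 0.94 at E16.5. Of the 56, 40 (71.4%) had a negative change at E14.5, and 10 were lower and 2 higher at an unadjusted p under 0.05. In 10 all knockouts lay below all controls and in 4 all lay above. The shares over all genes were 44.7% negative, 3.1% lower at that p, and 4.9% below and 7.84% above without overlap. For the counts at that p and without overlap, in both sets, the shares over all genes are not a like-for-like comparison. How much of the excess comes from the selection for low spread was not tested. The 5 genes of E14.5 included 1 of the 120, B2m. Among the 176 genes, 0 differed between stages by the interaction test, and over all 12406 genes 0 did, while 1105 (8.91%) had an unadjusted p under 0.05.

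Epha4, an ephrin receptor, Capn6, a calpain-like protein, and Tnxb, a tenascin, all higher at E16.5, had all E14.5 knockouts above all controls. They were chosen after their values were seen. Epha4 read 216, 119 and 99.7 in controls and 270, 350 and 356 in knockouts at E14.5 (1.14 ± 0.22, and 1.03 at E16.5). Capn6 read 691, 459 and 434 against 876, 1248 and 1017, and Tnxb 170, 148 and 133 against 267, 305 and 260. Relative to the control mean, the median of the 120 was 0.17, -0.03 and -0.15 on controls 1, 2 and 3 and 0.27, 0.51 and 0.36 on knockouts 1, 2 and 3. For the 56, with the sign turned, it was 0.24, -0.14 and -0.13 on controls and 0.16, 0.14 and 0.23 on knockouts. Control 1 was displaced from the other controls in the direction of the knockouts in both sets. For the 56, its median of 0.24 was at least as far displaced as that of every knockout array. Without control 1 the number of the 56 that were lower at an unadjusted p under 0.05 was 17, and 6 without control 2. The number of the 120 that were higher was 32 without control 3 or without knockout 2, and 19 without knockouts 1 and 2.

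**Figure D5:**
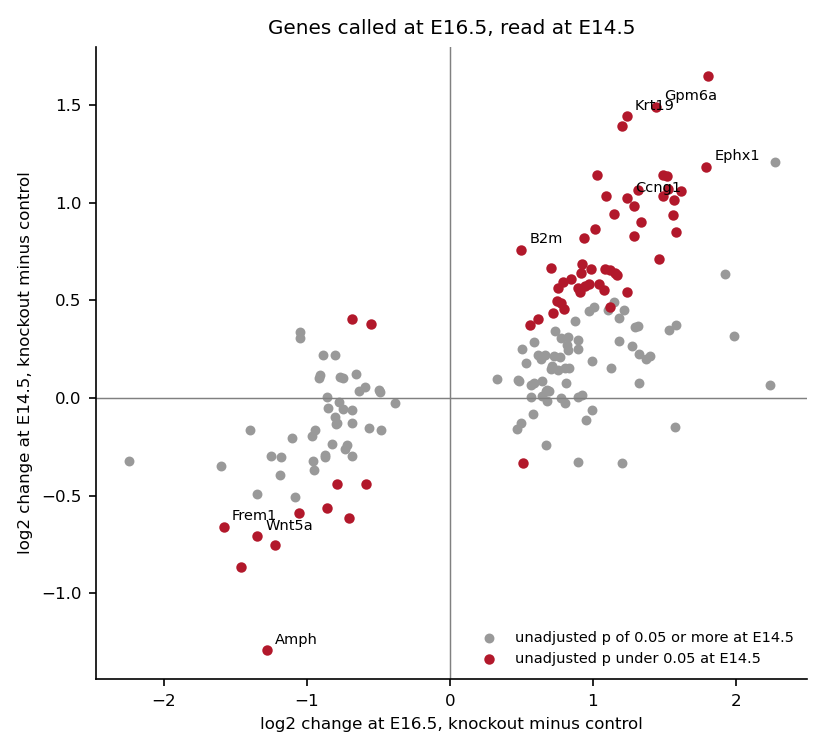
Log2 change, knockout minus control, at E16.5 (x axis) and at E14.5 (y axis) for the 176 genes past the threshold at E16.5, with 1 point per gene. Red points had an unadjusted p under 0.05 at E14.5; of the 120 genes that rose at E16.5, 108 lie above 0 at E14.5, and of the 56 that fell, 40 lie below 0.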

How the data were processed

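RNA of fetal ovaries was labelled with biotin and hybridised to Affymetrix arrays, per the labels' protocols. The deposited values are linear intensity values. Per the submitters' processing notes, MAS5 and Affymetrix Expression Console were used, and no version is named. Each array's trimmed mean, without 2% at each end, was 500, so a global difference in RNA amount is not kept. The number of arrays limits the precision.

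Here values were taken as log2(signal + 16), which understates changes of dim genes. In the annotation of 45037 probe sets, 34945 had 1 gene symbol, 932 several and 9160 none listed. For each of 18193 genes the probe set of highest mean was kept, and 12406 genes above the 40th percentile (signal 62.0) were tested. All 14 arrays were fitted in 4 groups with limma 3.58.1 (eBayes with trend) in R 4.3.3, and files were read with data.table, version 1.17.8. The 3' minus 5' log2 difference of Gapdh was -0.42 to -0.06 on E14.5 arrays and 0.94 to 1.83 on E16.5 arrays. All tests are two-sided, with Benjamini-Hochberg adjustment over 12406 genes and a threshold of 0.05. Lists are described by counts and medians, without a set test. Plots used matplotlib 3.10.9 and Python 3.11.15.

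Eligible to be named were Nr2f2, Wt1, genes past the threshold and the 10 largest and 10 smallest changes without overlap. From each list the first gene and up to 4 of smallest p were eligible too. Not all of these are shown (Bcl2 and Bmp2 are not), and the choice among them followed no stated rule. Other genes are marked as chosen afterwards. The members and lists were chosen with earlier results of these data known. On simulated data, 28.3%, 70.7% and 94.0% of genes changed 1.5-, 2- and 3-fold were recovered at E14.5, and 4.67% of calls were false. The simulated noise was drawn for each gene on its own, without shifts shared by many genes of an array. The real E14.5 arrays had such shifts, as in the hepatocyte genes, so these rates cannot be carried over to them. Alternatives changed the pseudocount, scaling, filter, probe set rule, spread model, samples and threshold, added the replicate number as a block or left out arrays.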

Additional observations from a re-analysis of the deposited data

How the results depend on the processing

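The counts of genes past the threshold at E14.5 (5 higher, 0 lower, 0 differing between stages) depended on the processing. No gene was higher (0) with a pseudocount of 64, quantile normalization, median centring, the 60th percentile filter, eBayes without trend, the E14.5 arrays alone, the 3' to 5' ratio of Gapdh as a covariate, or without knockouts 1 and 2. With a pseudocount of 4 the 5 were the same genes. Without a filter 8 were higher, 1 lower and 1 differed between stages. With every probe set on its own 2 were higher, and with the mean of a gene's probe sets 5, of which 4 were shared. Leaving out 1 array gave 0 to 106 higher, 0 to 73 lower and 0 to 30 differing between stages. Without control 1 and knockout 3 together, chosen after seeing the data, 79 were higher, 42 lower and 21 differed. The cause of these moves was not tested.

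With the replicate number as a block 9 genes were higher, 4 of them among the 5. Same-numbered arrays' deviations from their group means correlated at 0.06, 0.04 and -0.04, and those of other numbers at -0.158 to 0.13. With 3 arrays per group, these values cannot settle whether equal numbers mark a pair.

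Of the 120 genes higher at E16.5, 32 to 52 were higher at E14.5 at an unadjusted p under 0.05 when 1 array was left out, and 19 without knockouts 1 and 2. Of the 56 lower, 6 to 17 were lower, and 4 without knockouts 1 and 2.

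Of 1988 values of 96 named genes under alternatives, 22 changed sign, in 17 genes. Nr2f6 turned to -0.0305 with quantile normalization, -0.0382 with median centring and -0.081 without knockouts 1 and 2, and it ranged from -0.0298 to 0.0587 when 1 array was left out. Nr2f1 ranged from -0.0217 to 0.312 when 1 array was left out and had -0.11 without control 1 and knockout 3, and Ptch1 turned to 0.0512 with the mean of probe sets. Without knockouts 1 and 2 the sign turned for Bid (0.32), Sox2 (0.69), Sall4 (0.27), Dppa4 (0.35), Dppa3 (0.44), Dmrt1 (0.54), Dazl (0.0171), Mei4 (0.23), Hbb-y (0.19), Col1a1 (-0.068), Calb1 (-0.0324), Cdh16 (-0.19), S100a8 (-0.043) and S100a9 (-0.44). Median changes of lists moved by more than the spread between arrays in 45 of 860 comparisons.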

Other observations

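In fits on all 6 E14.5 arrays, genes that passed, other than the 5, included Agt, Hpgds, Mymx and Rps6kl1 without a filter, Hoxc5 and Man1a2 with every probe set on its own, and Ephx1 with the mean of probe sets. Ccng1, Hsd3b1, Krt19, Mt2 and Myl4 passed with the replicate number as a block. Of the adrenal genes, Mrap, an accessory protein of the corticotropin receptor, read 91.5, 84.7 and 45.7 in controls and 96.9, 146 and 131 in knockouts. The tubule cadherin Cdh16 read 58.3, 56.6 and 19.4 against 185, 146 and 34.4, and Calb1, a calcium-binding protein of duct epithelium, 919, 2260 and 1445 against 2846, 4923 and 1411. Igf2, the fetal growth factor, read 11604, 14233 and 13244 against 12014, 24570 and 16775, highest on knockout 2. Hbb-y, an embryonic globin, read 40711, 30458 and 33661 against 23859, 17828 and 39508, lowest on knockouts 1 and 2.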
